A study of Mus musculus with 12 samples.

Results

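The 7 long noncoding RNA genes described here are H19, Meg3, Rian, Mirg, Neat1, Malat1 and Gm42418, chosen by name and found by symbol among the 47643 gene identifiers of the count table, of which 17871 had at least 1 read. They were examined in the gastrocnemius, a calf muscle, of 6 female C57BL/6J mice aged 11 weeks, 3 of them controls and 3 over-expressing c-myc by their labels (called Myc animals here); the c-myc protein is a transcription factor of growing cells. Both legs of each animal were sampled, the left one uncontracted and the right one contracted, which gives 12 libraries in 4 groups of 3, and the titles pair the legs of 1 animal. Contraction and body side cannot be told apart. The Myc construct, the cells it acts in and the time from contraction to sampling are not given in the sources used here. Libraries were made with a kit that counts polyadenylated RNA from its 3' end, and every value below is a count of reads, a share of a library's reads, or CPM, in which a gene's reads are scaled to a library of fixed size.

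H19, Meg3, Rian and Mirg are transcribed from imprinted domains, in which 1 parental copy is silent. H19 lies beside the growth factor gene Igf2 and is kept at high levels in skeletal muscle after birth, when most other tissues switch it off, while Meg3, Rian and Mirg are read from the maternal copy of the Dlk1-Dio3 domain and carry microRNAs and small nucleolar RNAs. Neat1 is the scaffold of paraspeckles, nuclear bodies that hold RNA-binding proteins, and Malat1 resides in nuclear speckles, which store splicing factors. Gm42418 is annotated as a long noncoding RNA but lies in a copy of ribosomal RNA, so its reads are treated here as a possible measure of ribosomal RNA carried into the libraries.

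Positions are from the GENCODE annotation of GRCm38, the genome that the submitters' build mm10 names. H19 occupies chr7:142575529-142578143 on the minus strand, and its longest transcript has 5 exons and 2286 bases. Meg3 (chr12:109541001-109571726), Rian (chr12:109603940-109661716) and Mirg (chr12:109729764-109749460) follow each other on the plus strand of chromosome 12. Malat1 (chr19:5795690-5802672) and Neat1 (chr19:5824708-5845478) are neighbours on the minus strand of chromosome 19, and the longest transcript of each is a single exon.

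Gm42418 is 1 exon of 1831 bases at chr17:39846958-39848788 on the plus strand. All 1831 bases are overlapped on the minus strand by the annotated ribosomal RNA gene CT010467.1, and 923 of them by the noncoding gene AY036118. RefSeq (GRCm38.p6) gives Gm42418 as another name of an 18S-related pseudogene, Rn18s-rs5, which shares 1245 of those bases. CT010467.1 and AY036118 are both in the table with 0 reads in all 12 libraries. The strand setting of the counting, and how reads in the overlap were assigned, are not stated.

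Because the libraries start at poly(A), the last 60 bases of the transcripts are shown, read 5' to 3' from the genome on the strand of the gene, with the polyadenylation signal AATAAA in capitals where it occurs. Neat1 is shown by its short, polyadenylated transcript (3004 bases) and by the long one (20771 bases). The positions of these ends are chr7:142575529-142575588 (H19), chr12:109571667-109571726 (Meg3), chr19:5842307-5842366 and chr19:5824708-5824767 (Neat1), chr19:5795690-5795749 (Malat1) and chr17:39848729-39848788 (Gm42418).
H19: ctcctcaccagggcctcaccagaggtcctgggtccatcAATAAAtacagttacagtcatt
Meg3: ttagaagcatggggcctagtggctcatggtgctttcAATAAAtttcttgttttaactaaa
Neat1 short: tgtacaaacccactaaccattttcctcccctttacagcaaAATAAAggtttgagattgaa
Neat1 long: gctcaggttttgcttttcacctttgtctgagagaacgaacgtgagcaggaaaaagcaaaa
Malat1: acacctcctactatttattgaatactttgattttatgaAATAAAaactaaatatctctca
Gm42418: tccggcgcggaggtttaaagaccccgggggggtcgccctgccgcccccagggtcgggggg

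The signal was present at the annotated ends of H19, Meg3, short Neat1 and Malat1. Neither AATAAA nor ATTAAA was present in the last 60 bases of long Neat1 and Gm42418. One of those hexamers, searched on the transcript strand, stood in the last 60 bases of 74.3% of the longest transcripts of the genes tested (n = 6673) and of 41.7% of annotated lincRNA genes (n = 5854). Runs of A within a transcript are shown next, since such runs can also pair with an oligo(dT) primer. The longest run was 16 A in Meg3, 15 in Rian, 12 in Malat1, 7 in long Neat1, 6 in Gm42418, 5 in Mirg and 4 in H19, and windows are shown for Malat1 and Gm42418, whose levels are compared further on. In the windows below the longest run is in capitals, with 24 bases on either side: 12 A in Malat1, which ends 298 bases before the transcript end (chr19:5795964-5796023), and 6 A in Gm42418, which ends 1616 bases before it (chr17:39847143-39847196).
Malat1: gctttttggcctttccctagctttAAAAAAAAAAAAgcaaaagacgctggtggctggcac
Gm42418: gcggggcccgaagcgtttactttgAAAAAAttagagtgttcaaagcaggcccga
A run of at least 12 A was found in 13.4% of the tested genes' longest transcripts and in 4.202% of the lincRNA transcripts, and a run of at least 6 A in 63.7% and 43.6%. Where in a transcript the reads began is not recorded in a count table, nor is where the RNA of this muscle ends or whether it carries a poly(A) tail. These sequences are thus a description of the annotated loci.

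H19 also holds the precursor of miR-675 in an exon. The mature strands, from RefSeq (GRCm38.p6), lie at chr7:142577112-142577133 (5p) and chr7:142577078-142577099 (3p) on the minus strand, and are printed with the seed, bases 2 to 8, in capitals.
mmu-miR-675-5p: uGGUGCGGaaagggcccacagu
mmu-miR-675-3p: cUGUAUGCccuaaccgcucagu
The Mir675 gene, and likewise Mir770 within Meg3, had 0 reads in each of the 12 libraries. A 3' poly(A) library is not built to count processed microRNAs.

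Myc was read first in every library, since it checks the labels. In uncontracted legs the control libraries had 0, 1 and 0 reads of Myc, against 11, 9 and 9 in those labelled Myc. In contracted legs the libraries labelled control had 1, 10 and 59 reads, against 32, 0 and 2 in those labelled Myc. The contracted libraries numbered 2 and 3 thus go against their labels in both genotypes, and results are given with and without these 4. Without them 1 contracted library per genotype is left, that of animal 1, which is then assumed to vary like the uncontracted groups, so such values describe those legs, and a call lost there is no evidence against a change. A 3' count misses a transgene that lacks the gene's own 3' end.

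The 12 listed genes that define fast muscle fibres, the main fibres of this muscle, were all detected, with a summed level of 185262 to 232922 CPM. Library totals were 1371732 to 1643216 reads, and 11909 to 12860 genes had a read. The 10 highest genes took 45.1 to 51.8% of the reads. Mitochondrial messenger and transfer RNA took 26.6 to 35.0% of the reads, and the mitochondrial ribosomal RNAs mt-Rnr1 and mt-Rnr2 together took 0.248 to 0.877%.

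Together the 7 genes took 0.4995 to 1.504% of a library's reads, and 0.393 to 0.578% when Gm42418 was left out. By mean share of reads, H19 and Gm42418 ranked 24 and 25 of the 17871 genes with a read, Neat1 ranked 110, Malat1 244 and Meg3 662. Rian and Mirg were not abundant in this muscle, with 22 and 36 reads in the 12 libraries together. These are shares of reads, and a share of reads does not rank transcripts per molecule where priming can differ. In whole muscle, fewer cells of a type and less RNA per cell cannot be told apart.

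**Figure D1:**
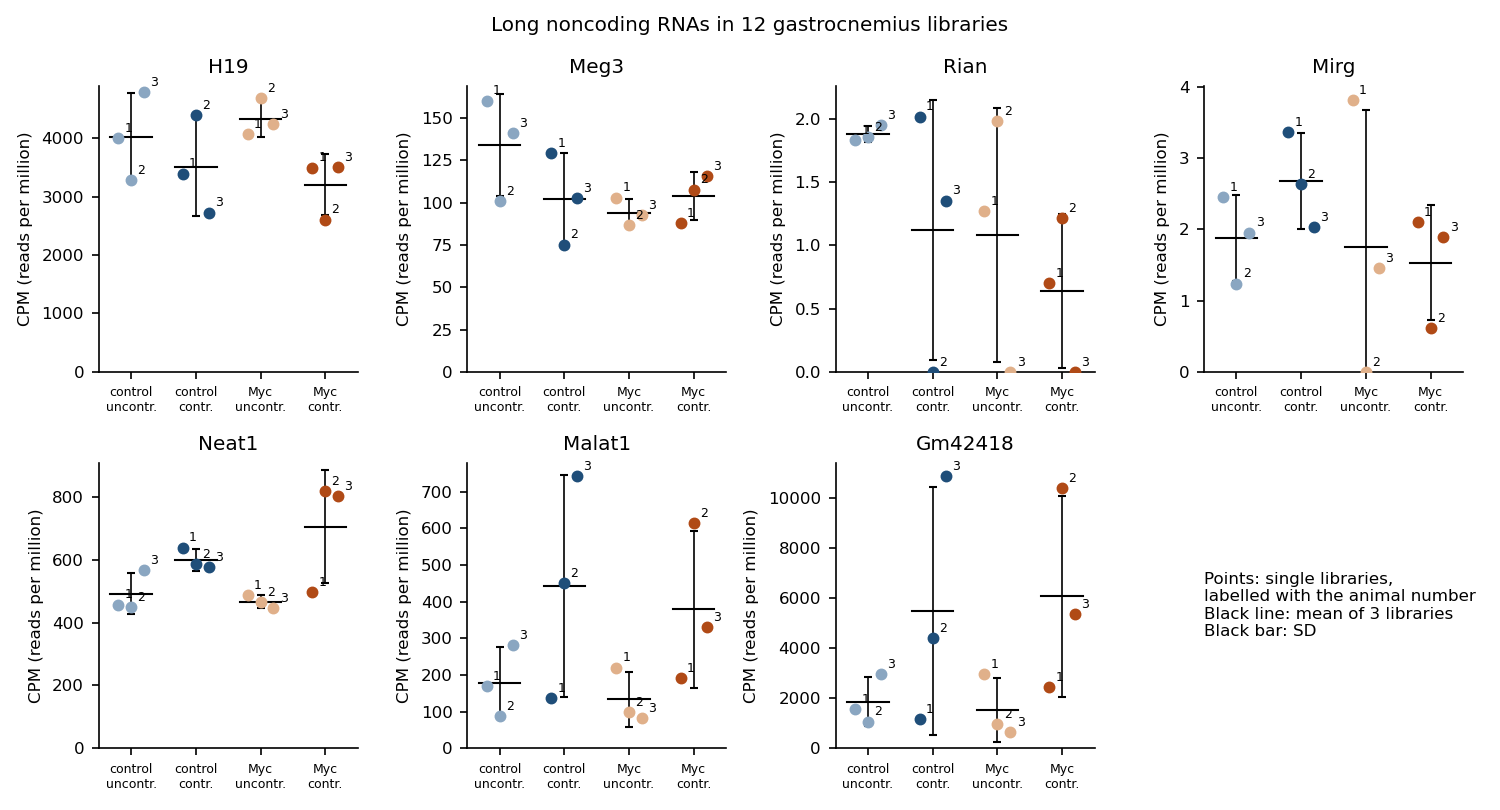
Level of each gene in CPM (vertical axis) in the 4 groups of 3 libraries (horizontal axis); points are single libraries labelled with the animal number, black lines are means and bars are SD. Gm42418 and Malat1 were highest in contracted libraries 2 and 3 of each genotype, while H19 varied by less than 2-fold over all 12 libraries.

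H19, a regulator of growth and of myoblast differentiation, took 0.400, 0.329 and 0.479% of the reads in uncontracted controls 1, 2 and 3 and 0.340, 0.440 and 0.273% in contracted controls. In Myc animals it took 0.408, 0.469 and 0.4245% of the reads in uncontracted legs and 0.350, 0.261 and 0.351% in contracted legs. The contracted libraries lay below the uncontracted ones in Myc animals without overlap, whereas the control groups overlapped because animal 2 went the other way. Over all 12 libraries the highest level of H19 was 1.84 times the lowest.

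The mean share of H19 was 0.403% ± 0.0750 in uncontracted and 0.351% ± 0.0842 in contracted controls (SD, n = 3), and 0.434% ± 0.0319 and 0.321% ± 0.0520 in Myc animals. With contraction averaged over both genotypes the log2 change was -0.34 ± 0.11 (SE), with an edgeR adjusted p = 0.0716, which did not pass 0.05. It was 5 of 6 animals that had less H19 in the contracted leg, and the exact sign-flip permutation test over animals (2-sided) gave p = 0.156. The call depends on single libraries: the adjusted p was 0.0172, 0.0372, 0.0491 and 0.0491 when contracted control 2, contracted Myc 1, contracted control 1 or uncontracted control 2 was left out, and 0.00999 without a filter on low counts. Without the 4 contracted libraries numbered 2 and 3 the change was -0.26 (adjusted p = 0.554).

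Neighbours and targets of H19 were examined next. Of 20 tested genes of the H19-Igf2 domain and of the imprinted genes linked to it, 5 rose and 1 fell with contraction averaged over genotypes, with a median log2 change of 0.17, beside -0.0033 over all 6676 genes, of which 7.47% passed. Those that rose were Igf2bp2, Airn, Impact, Kcnq1ot1 and Dnmt3a, the last of them named because it completes the 5. Igf2bp2, Airn and Impact entered the test only through the contracted legs, since fewer than 3 uncontracted libraries reached the filter's 6.55 CPM, so the count and the median of the list are no support for a rise. The same holds for 113 of the 381 genes that rose among all those tested. Nctc1, a noncoding RNA transcribed near a muscle enhancer downstream of H19, was the gene that fell. Its levels were 646, 523 and 611 CPM in uncontracted and 393, 293 and 286 CPM in contracted controls, and 539.8, 499 and 466 CPM in uncontracted and 418, 287 and 275 CPM in contracted legs of Myc animals. All 6 contracted libraries lay below all 6 uncontracted ones.

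The log2 change of Nctc1 was -0.77 ± 0.12 (edgeR adjusted p = 9.13e-05), and it was -0.42 with an adjusted p = 0.106 without the 4 libraries. Igf2bp2, an RNA-binding protein of growing and regenerating muscle that binds Igf2 messenger RNA, rose by 2.88 ± 0.36 on the log2 scale (edgeR adjusted p = 8.57e-06), a gene that had to be high in contracted legs to be tested at all. In controls it went from 2.08 ± 1.53 to 14.3 ± 2.10 CPM and in Myc animals from 1.92 ± 2.28 to 17.6 ± 5.70 CPM (SD, n = 3), and the log2 change was 2.69 without the 4 libraries (adjusted p = 0.00505). Of the 19 genes of the list tested without them, only Igf2bp2 passed, and the median was -0.07. Igf2 itself was sparse, at 20 to 36 reads a library in a muscle where H19 had 4033 to 7359 reads.

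The imprinted chromosome 12 transcripts were led by Meg3, an RNA that binds the Polycomb repressive complex. Meg3 stood at 160.2, 101 and 141 CPM in uncontracted and 129, 75.2 and 103 CPM in contracted controls. In Myc animals it stood at 103, 86.5 and 92.6 CPM in uncontracted legs and 88.0, 108 and 116 CPM in contracted legs. Each contracted control leg was below the same animal's uncontracted leg, and in Myc animals 1 leg was lower and 2 were higher.

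The log2 change of Meg3 with contraction was -0.41 ± 0.19 in controls (edgeR adjusted p = 0.340) and 0.11 ± 0.19 in Myc animals (adjusted p = 0.837). The difference between the genotypes, 0.53 ± 0.27, had an unadjusted p = 0.0603 and an edgeR adjusted p = 0.967. In controls Meg3 reached an adjusted p = 0.0409 (log2 change -0.66) when contracted control 1 was left out, and the change was -0.03 without the 4 libraries. Between uncontracted Myc legs and uncontracted controls the CPM ranges met, with 1 Myc library above the lowest control. On the TMM-scaled CPM they did not overlap, at 82.2 to 102 and 109.7 to 167 CPM, beside 12.9% of all genes tested. The log2 change of Meg3 with Myc in uncontracted legs was -0.54 ± 0.19 (unadjusted p = 0.00924, edgeR adjusted p = 0.564).

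Rian, which hosts small nucleolar RNAs, had 3, 3 and 3 reads in uncontracted and 3, 0 and 2 in contracted controls, and 2, 3 and 0 in uncontracted and 1, 2 and 0 in contracted legs of Myc animals. Mirg, which hosts a microRNA cluster, had 4, 2 and 3 reads, then 5, 4 and 3, then 6, 0 and 2, and then 3, 1 and 3 in the same order of groups. Both stayed at or under 6 reads in every library, too few for the fit across genes. A count of 0 allows up to 3 reads, which is 1.98, 2.19 and 1.89 CPM for Rian in contracted control 2, uncontracted Myc 3 and contracted Myc 3, and 1.98 CPM for Mirg in uncontracted Myc 2. Such limits cover counting error only, since no molecular identifiers were counted. Rian was lower in the contracted leg of 4 animals, higher in 1 and at 0 in both legs of Myc 3, so that its sign-flip test could not pass 0.05. Mirg was higher on the CPM scale in the contracted leg of 5 of 6 animals (exact paired permutation p = 0.344). With 3 reads of Mirg in both legs of control 3, and 3 of Rian in both legs of control 1, those rises come from library totals alone.

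The protein-coding genes of the same domain were almost silent. Dlk1, a growth inhibitor, had 0 to 3 reads a library, Dio3, which inactivates thyroid hormone, had 0 to 4, and Rtl1, a retrotransposon-derived gene of placenta and fetal muscle, had 1 read in all. Of 35 genes listed for the domain and its flanks 33 were in the table and 10 had reads. Of the 3 with enough reads to be tested none passed edgeR with contraction averaged over genotypes, and DESeq2 called 0. An unadjusted edgeR p under 0.05 was reached by 0 of them and by 1346 of all 6676 genes. Dync1h1, a dynein heavy chain gene on the flank, had the highest level at 244 ± 22.6 CPM (SD, n = 12) and a log2 change of -0.13 ± 0.09.

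The counts of Neat1 are per gene, so its short and long transcripts are not told apart in any value below. Neat1 was measured at 457, 450.4 and 568 CPM in uncontracted and 638, 585 and 575 CPM in contracted controls. In Myc animals it was at 487, 465 and 447 CPM in uncontracted legs and 497, 817 and 802 CPM in contracted legs. Contracted legs were above uncontracted legs without overlap in both genotypes, and Neat1 was higher in the contracted leg of all 6 animals. A shift in 1 direction in all 6 animals was seen for 11.4% of the genes tested. The smallest rises were those of control 3 and Myc 1, with log2 differences of 0.02 and 0.03, and the largest those of Myc 2 and Myc 3, with 0.81 and 0.84.

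The mean log2 difference of Neat1 between the legs of an animal was 0.43 ± 0.36 (SD, n = 6), with p = 0.0312 in the exact sign-flip permutation test, the smallest that 6 animals allow. In the edgeR fit Neat1 rose by 0.41 ± 0.11 on the log2 scale, or 1.33-fold, with contraction averaged over genotypes (adjusted p = 0.0171). In Myc animals alone it rose by 0.57 ± 0.15 (adjusted p = 0.0359), and in controls the change was 0.26 ± 0.15 (adjusted p = 0.491). The difference between those changes was 0.31 ± 0.21 (edgeR adjusted p = 0.970).

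Leaving out single libraries moved the call more than the size of this change. The averaged change was 0.40, 0.37 and 0.35 without uncontracted Myc 2, contracted Myc 3 or contracted Myc 2 (edgeR adjusted p = 0.0563, 0.0649 and 0.0694), and 0.25 without the 4 contracted libraries (adjusted p = 0.596). In Myc animals it was 0.57, 0.53 and 0.58 without uncontracted Myc 1, 2 or 3 (adjusted p = 0.0849, 0.167 and 0.101), 0.43 and 0.48 without contracted Myc 2 or 3 (adjusted p = 0.259 and 0.202), and 0.54 with the animal as a block (adjusted p = 0.0736). Contracted Myc 1 alone, against the 3 uncontracted Myc libraries, gave 0.09 (adjusted p = 0.988).

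Among paraspeckle proteins, which Neat1 holds together, 0 of 21 tested genes passed edgeR with contraction averaged over genotypes, beside 7.47% of all genes. Unadjusted edgeR p was under 0.05 for 3 of them, beside 1346 of all 6676 genes. DESeq2 called 0, and the median log2 change was 0.15. Ubap2l, which is found in RNA granules, had the smallest p, with a log2 change of 0.41 ± 0.13 (adjusted p = 0.0687). Of 13 tested neighbours of Malat1 and Neat1 and genes linked to their maturation or induction, 1 rose, near the 7.47% of all genes that passed: Hif1a, which encodes the oxygen-sensing transcription factor subunit. Hif1a went from 10.4 ± 1.71 to 16.96 ± 2.75 CPM in controls and from 10.8 ± 1.67 to 18.9 ± 3.17 CPM in Myc animals (SD, n = 3), a log2 change of 0.72 ± 0.18 (adjusted p = 0.0155), and of 0.48 without the 4 libraries (adjusted p = 0.767). DESeq2 called 0 of these 13 genes.

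Malat1 was measured at 170.0, 87.1 and 281 CPM in uncontracted and 138, 449.7 and 742 CPM in contracted controls. In Myc animals it was at 219.7, 99.1 and 81.6 CPM in uncontracted legs and 192, 614 and 330.1 CPM in contracted legs. The 4 highest libraries were the contracted ones numbered 2 and 3, while animal 1 of each genotype had less Malat1 in the contracted leg, so that contracted and uncontracted groups overlapped. The highest level was 9.09 times the lowest, against a 95% exact binomial interval of 0.0699 to 0.0787% of reads around the highest and 0.00672 to 0.00982% around the lowest.

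Gm42418 took 0.157, 0.106 and 0.297% of the reads in uncontracted and 0.117, 0.440 and 1.09% in contracted controls. In Myc animals it took 0.298, 0.0957 and 0.0639% in uncontracted legs and 0.245, 1.04 and 0.537% in contracted legs. The pattern over libraries was that of Malat1: the contracted libraries numbered 2 and 3 were the 4 highest, and animal 1 of each genotype was lower in the contracted leg. The highest level was 17.1 times the lowest. These are also the libraries whose Myc reads go against their labels, and the part that this plays in either gene was not tested.

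**Figure D2:**
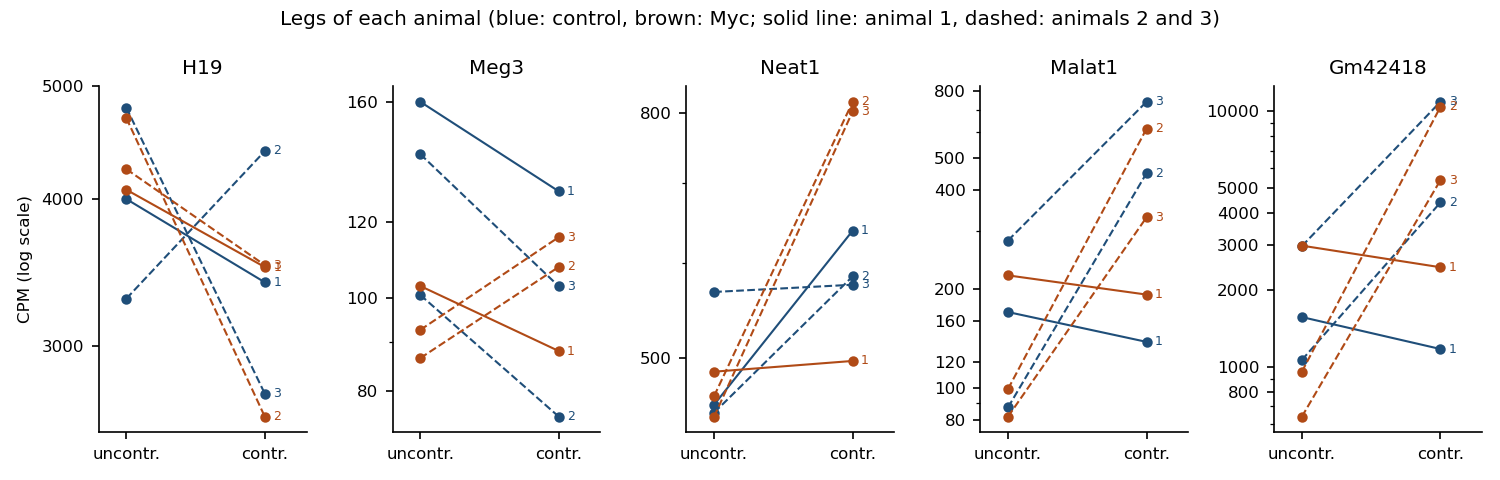
CPM on a log scale (vertical axis) in the uncontracted and contracted leg (horizontal axis), with 1 line per animal, blue for control and brown for Myc, solid for animal 1 and dashed for animals 2 and 3. Neat1 rose in all 6 animals, while Malat1 and Gm42418 rose in animals 2 and 3 of both genotypes and were lower in the contracted leg of animal 1.

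Malat1 rose by 1.38 ± 0.32 on the log2 scale (2.60-fold) with contraction averaged over genotypes (edgeR adjusted p = 0.00850), and Gm42418 by 1.75 ± 0.41 (3.37-fold, adjusted p = 0.00901). Both gave p = 0.125 in the exact paired permutation test, being higher in the contracted leg of 4 of 6 animals. DESeq2 did not call either, with adjusted p = 0.0588 for Malat1 and 0.0632 for Gm42418. Without the 4 contracted libraries the log2 changes were 0.10 and 0.04 (adjusted p = 0.986 and 0.998), and contracted control 1 alone, against the 3 uncontracted controls, gave -0.32 and -0.61, the direction already seen in that animal.

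With contraction averaged over genotypes 3 of the 5 genes tested thus rose (Neat1, Malat1 and Gm42418) and none fell, beside 7.47% of all genes tested that passed, 381 higher and 118 lower. In controls edgeR called 0 of the 5, beside 2.8% of all genes, and DESeq2 called 0. An unadjusted edgeR p under 0.05 was reached by 3 of the 5 and by 858 of all 6676 genes. In Myc animals 1 of the 5 rose, Neat1, beside 3.89% of all genes. Groups did not overlap for 1 of the 5 in controls (Neat1), beside 16.8% of all genes, and for 2 of the 5 in Myc animals (H19 and Neat1), beside 19.5% of all genes. The median log2 change of the 5 genes was 0.26 in controls, 0.57 in Myc animals and 0.41 averaged, against -0.01 to 0.01 over all genes. Leaving contracted control 1 out gave 3 calls in controls (Meg3, Malat1 and Gm42418), beside 313 of 7033 genes.

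**Figure D3:**
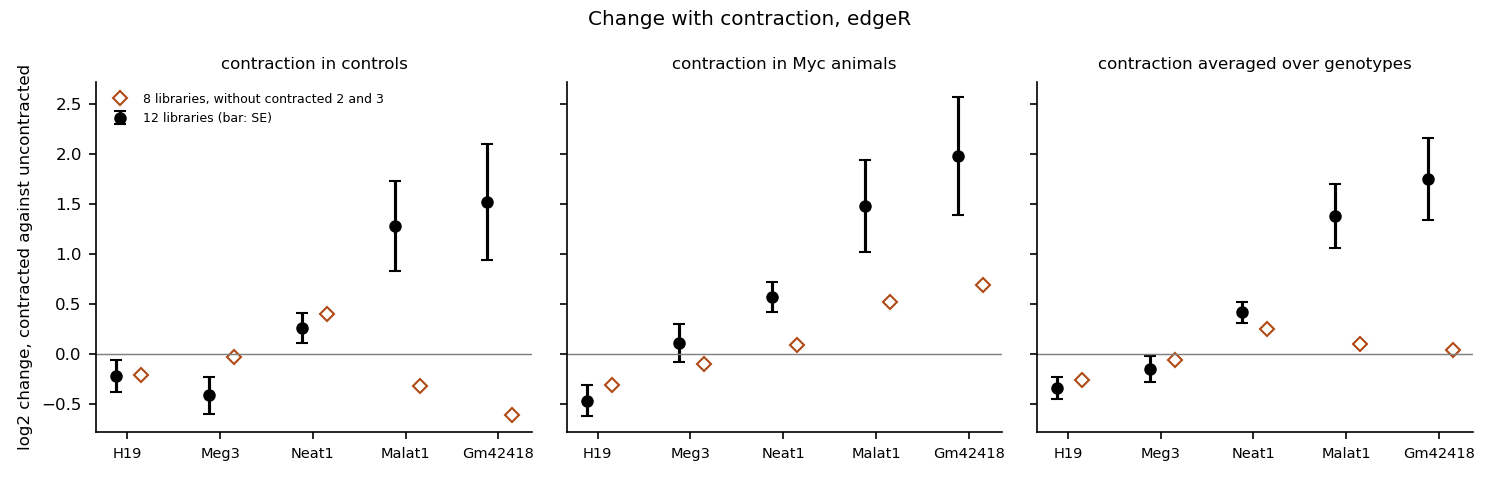
Log2 change from uncontracted to contracted legs (vertical axis) of the 5 tested genes in controls, in Myc animals and averaged; black points are the fit to 12 libraries with SE, and open diamonds the fit to the 8 libraries left without contracted 2 and 3 of each genotype. Malat1 and Gm42418 are at 1.28 or higher with all libraries and below 0 in controls without those 4.

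None of the 5 genes passed for genotype. Of all 6676 genes edgeR called 0 (0%) for Myc in uncontracted legs, in contracted legs and averaged over legs, and 0 for the interaction of contraction and Myc, with 421, 205, 297 and 331 genes at an unadjusted p under 0.05. DESeq2 called 1, 0, 0 and 0 genes. Without the 4 contracted libraries edgeR called 6, 0, 14 and 0 of 7282 genes, none of them a member. Of the 5 tested members 1, 0, 0 and 0 had an unadjusted p under 0.05, the 1 being Meg3 in uncontracted legs, and DESeq2 called none. In contracted legs no member's groups were free of overlap, beside 7.89% of all genes. Averaged over legs, the log2 change with Myc was -0.04 ± 0.11 for H19, -0.27 ± 0.13 for Meg3, 0.05 ± 0.11 for Neat1, -0.32 ± 0.32 for Malat1 and -0.07 ± 0.40 for Gm42418.

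Malat1 and Gm42418 moved together from library to library. Over the 12 libraries their log2 CPM had a Pearson r = 0.98 and a Spearman rho = 0.98, each with a permutation p = 1e-05, the smallest that 100000 resamples give, and a Benjamini-Hochberg adjusted p = 0.00021 over 21 pairs. With the group means removed, r was again 0.98, with an exact permutation p = 0.000772, the smallest that reordering within groups allows, and an adjusted p = 0.0162. The pooled r, group means kept, was 0.96 without the 2 libraries farthest from the median of Malat1, 0.95 without the 4 contracted libraries numbered 2 and 3, 0.96 in the 6 uncontracted and 0.97 in the 6 contracted libraries. Of the 21 pairs this was the 1 that passed with group means removed. The libraries share depth and totals, so such values describe co-variation of shares of reads.

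Neat1 followed both genes only loosely. Its r with Malat1 was 0.68 (permutation p = 0.0156, adjusted p = 0.109) and its rho 0.76 (p = 0.0057, adjusted p = 0.0468), and with the group means removed r was 0.43 (exact permutation p = 0.206, adjusted p = 0.865). Its r with Gm42418 was 0.70 (permutation p = 0.01, adjusted p = 0.105) and its rho 0.75 (p = 0.0067, adjusted p = 0.0468), and 0.42 with the group means removed (exact permutation p = 0.172, adjusted p = 0.865). Without the 2 libraries farthest from the median of Neat1, the pooled r was 0.63 and 0.54.

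H19 and Gm42418 had r = -0.55 (permutation p = 0.064, adjusted p = 0.336) and rho = -0.37 (p = 0.236, adjusted p = 0.80). This rests on contracted control 3 and contracted Myc 2, without which the pooled r was 0.02, and with the group means removed it was -0.23. H19 and Meg3, from separate imprinted domains, had r = -0.14 with the group means removed. The pairs with Rian or Mirg rest on 0 to 6 reads a library and are not read further.

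**Figure D4:**
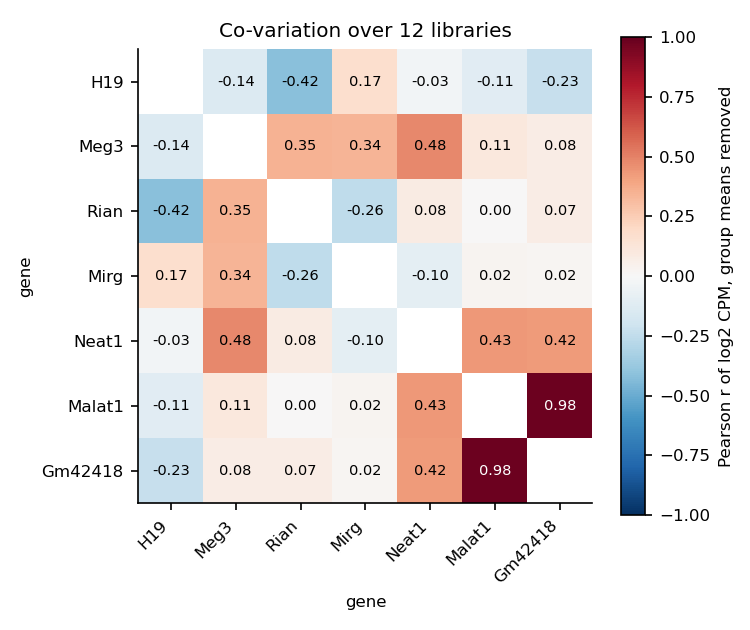
Pearson r of log2 CPM between each 2 of the 7 genes over 12 libraries after the group means were removed, from -1 (blue) to 1 (red), with r printed in each square. Malat1 and Gm42418 stand out at 0.98, and the other pairs lie between -0.42 and 0.48.

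As a measure of ribosomal RNA, Gm42418 was set beside the 2 mitochondrial ribosomal RNAs, which come from another genome and from no shared locus. Their summed share was 0.412, 0.306 and 0.460% in uncontracted and 0.446, 0.556 and 0.872% in contracted controls, and 0.388, 0.299 and 0.248% in uncontracted and 0.403, 0.877 and 0.693% in contracted legs of Myc animals. The 4 highest libraries were again the contracted ones numbered 2 and 3. Over 12 libraries this share had r = 0.93 and rho = 0.90 with Gm42418 (permutation p = 1e-05 and 0.00017, adjusted p = 0.000125 and 0.00225 over 25 relations). With the group means removed r was 0.89 (exact permutation p = 0.00231, adjusted p = 0.0386). The pooled r, group means kept, was 0.90 without the 2 farthest libraries and 0.75 without the 4 contracted ones. The share of the other mitochondrial RNA had a pooled r = -0.45 with Gm42418 (permutation p = 0.145, adjusted p = 0.248). With the group means removed that r was -0.48 (exact permutation p = 0.133, adjusted p = 0.371). By which route the mitochondrial ribosomal RNAs entered the libraries was not tested.

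Malat1 stood in the same relation to the mitochondrial ribosomal RNAs, with r = 0.92 and rho = 0.91 (permutation p = 1e-05 and 0.00018, adjusted p = 0.000125 and 0.00225). With the group means removed r was 0.87 (exact permutation p = 0.00309, adjusted p = 0.0386), and the pooled r was 0.86 without the 2 farthest libraries and 0.85 without the 4. Neat1 had a pooled r = 0.80 and rho = 0.87 with the same share (permutation p = 0.00303 and 0.00047, adjusted p = 0.015 and 0.00392). With group means removed its r was 0.59 (exact permutation p = 0.201, adjusted p = 0.431). H19 had a pooled r = -0.70 (permutation p = 0.012, adjusted p = 0.0374) and rho = -0.42 (p = 0.177, adjusted p = 0.295). Its pooled r was -0.15 without contracted control 3 and contracted Myc 2, and -0.46 with group means removed (exact permutation p = 0.297, adjusted p = 0.495). The number of genes with a read rose with Gm42418 and Malat1 at pooled r = 0.82 and 0.77 (permutation p = 0.00119 and 0.00287, adjusted p = 0.00992 and 0.015). With group means removed r was 0.78 and 0.74, which did not pass (exact permutation p = 0.00694 and 0.0147, adjusted p = 0.0579 and 0.0916). For Neat1 the pooled r was 0.74 (permutation p = 0.00503, adjusted p = 0.021), and 0.69 with group means removed (exact permutation p = 0.0424, adjusted p = 0.152). Total reads had r = 0.47 and 0.40 with Gm42418 and Malat1, group means removed (exact permutation p = 0.165 and 0.207). Whether rRNA carry-over or any other property of these libraries sets the level of either gene was not tested.

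**Figure D5:**
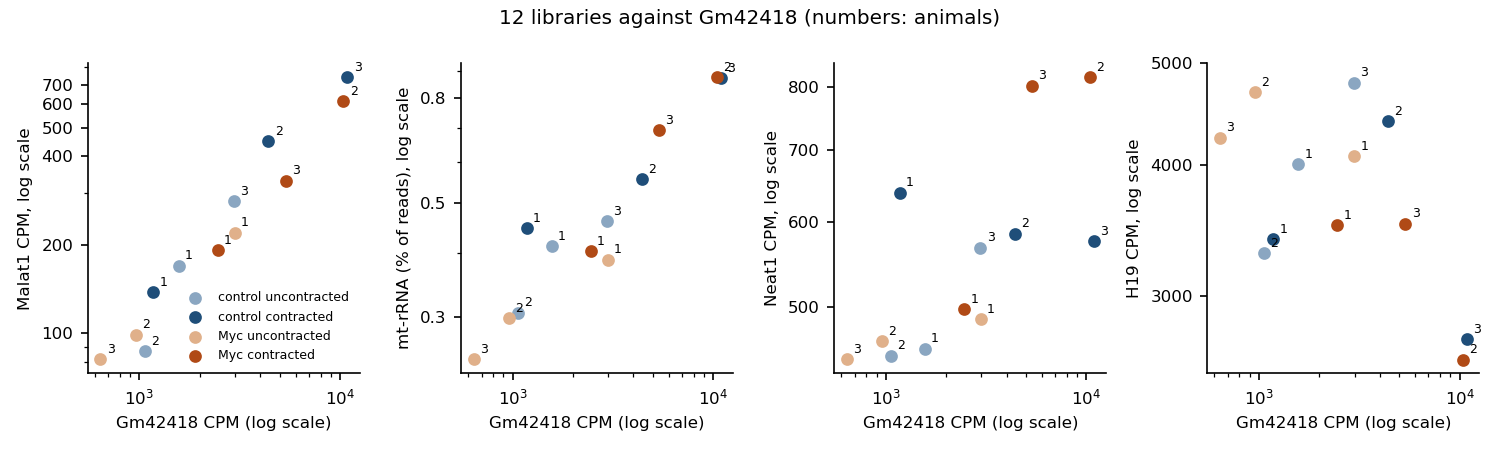
Malat1 CPM, the share of mitochondrial ribosomal RNA (mt-rRNA) in percent of reads, Neat1 CPM and H19 CPM (vertical axes, log scale) against Gm42418 CPM (horizontal axis, log scale) in 12 libraries, coloured by group and numbered by animal. Malat1 (r = 0.98) and mitochondrial ribosomal RNA (r = 0.93) climb with Gm42418, Neat1 less tightly (r = 0.70), and H19 is lowest in the 2 libraries with the most Gm42418.

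Of 4 tested genes from a list of ribosomal RNAs, RNA polymerase III products and genes near or related to them, 3 rose with contraction averaged over genotypes, with a median of 0.83, beside 7.47% of all genes tested that passed. Only mt-Rnr1 and mt-Rnr2 of the 4 are ribosomal RNAs, and the one that did not pass was Lars2, a mitochondrial leucyl-tRNA synthetase (-0.17 ± 0.24). mt-Rnr1 rose by 0.79 ± 0.14 (adjusted p = 0.000694) and mt-Rnr2 by 0.87 ± 0.17 (adjusted p = 0.00207), and without the 4 libraries neither passed (0.32 and 0.28, adjusted p = 0.322 and 0.708). The third was Gm26917, a noncoding RNA that ends upstream of Gm42418 in the same chromosome 17 repeat (chr17:39843013-39846341). It had 45, 32 and 31 reads in uncontracted and 51, 45 and 104 in contracted controls, and 60, 31 and 26 in uncontracted and 89, 78 and 89 in contracted legs of Myc animals.

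Gm26917 went another way than Gm42418 in animal 1 of each genotype, whose contracted leg held more Gm26917 and less Gm42418 than the uncontracted one (27.5 and 34.3 CPM of Gm26917 in control 1, 38.1 and 62.2 CPM in Myc 1). Its log2 change was 0.997 ± 0.20 (adjusted p = 0.00220) and stayed at 0.94 without the 4 libraries (adjusted p = 0.0348). Over the 12 libraries the CPM of Gm26917 had r = 0.73 and rho = 0.76 with Gm42418 (permutation p = 0.00829 and 0.00557, adjusted p = 0.0296 and 0.0238). With the group means removed r was 0.50 (exact permutation p = 0.334, adjusted p = 0.522).

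When mitochondrial genes and Gm42418 were left out of the totals, the log2 changes of H19, Neat1 and Malat1 with contraction averaged over genotypes were -0.34, 0.41 and 1.38, and the same number of genes, 3 of 5, passed. The r of Malat1 and Gm42418 with group means removed was 0.98 there too.

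Speckle proteins were examined as partners of Malat1. Of 31 tested, 3 rose and none fell with contraction averaged over genotypes, with a median of 0.21, a share near the 7.47% of all genes that passed. They were the splicing factors Tra2b (0.83 ± 0.20, adjusted p = 0.0122), Srsf11 (0.69 ± 0.18, adjusted p = 0.0168) and Sf3b1 (0.60 ± 0.16, adjusted p = 0.0191). Without the 4 libraries edgeR called 0 of 30 and the median was 0.04. Their r with Gm42418, group means removed and given as a description, was 0.87, 0.89 and 0.59. Srrm2 and Son, the scaffold proteins of speckles, were at 214 ± 28.6 and 171 ± 28.8 CPM (SD, n = 12) and did not pass (0.18 ± 0.09 and 0.25 ± 0.10).

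Of 22 tested further long noncoding RNAs, 3 rose and 1 fell with contraction averaged over genotypes, with a median of 0.04, beside 7.47% of all genes (381 higher and 118 lower). Those that rose were Gm26917, Airn, the antisense RNA of the imprinted Igf2r locus (1.71 ± 0.33, adjusted p = 0.00141, tested only through its level in contracted legs), and Kcnq1ot1, the antisense RNA of another imprinted domain (0.71 ± 0.19, adjusted p = 0.0209). Nctc1 was the one that fell. Airn, Kcnq1ot1 and Nctc1 are also in the H19-Igf2 list, and the values of the antisense RNAs are uncertain because the strand setting is not stated. Without the 4 libraries 1 of the 22 rose, Gm26917, and 1 fell, Dleu2, named as the gene behind that count, while Airn (0.85) and Kcnq1ot1 (0.07) no longer passed, with adjusted p = 0.742 and 0.986. Gas5, a host of small nucleolar RNAs, did not pass (0.06 ± 0.10).

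The genes whose profile over libraries was most like each member were found among genes with a mean of at least 20 CPM by Pearson r with group means removed (12 libraries, given as a description). For Malat1 they were Zcrb1 (0.99), Neb (0.99), which encodes the giant thin-filament protein nebulin, and Golga4 (0.98), a protein of the Golgi. For Gm42418 they were Golga4 (0.99), Tpr (0.98), a protein of the nuclear pore, and Srrm1 (0.98), a splicing coactivator. Neb ranged from 1238 to 4196 CPM and Golga4 from 37.9 to 147 CPM over the libraries. Of 2932 genes compared, 114 had r above 0.9 with Malat1 and 83 with Gm42418, against 3 for H19, 2 for Meg3 and 4 for Neat1.

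Gm42418 was at place 7 among the genes most like Malat1, and Malat1 at place 5 among those most like Gm42418. The 3 genes most like H19 were Fuca1 (0.96), a lysosomal fucosidase, Sap30l (0.91) and Prr12 (0.91). Meg3 was most like Mybpc2 (0.96), the myosin-binding protein of fast fibres, Tceal7 (0.91) and Adssl1 (0.89), the muscle adenylosuccinate synthetase. Neat1 was most like Bach1 (0.95), a heme-regulated repressor, Prkab2 (0.93), a subunit of the energy sensor AMPK, and Tmem64 (0.91).

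Of 12 marker lists, those of neutrophils and satellite cells differed between legs without overlap in both genotypes. Smooth muscle and adipocyte lists did so in Myc animals only, and the other lists overlapped in both genotypes. Of all single genes tested, on TMM-scaled CPM, 16.8% did not overlap in controls and 19.5% in Myc animals, so the number of such lists is no result in itself. Neutrophil markers, 5 of 6 detected, summed to 0.611 to 4.56 CPM in uncontracted and 8.57 to 71.0 CPM in contracted controls, and to 0.660 to 1.27 and 6.09 to 55.3 CPM in Myc animals, with Csf3r at 0 in every library. S100a8 and S100a9, with 222 and 89 reads in the 12 libraries together, made up most of this sum. Retnlg, Mmp9 and Il1r2 had 15, 15 and 7 reads, so the sum is no measure of neutrophil number. Satellite cell markers summed to 17.7 to 27.2 and 33.1 to 41.7 CPM in controls and to 18.4 to 25.1 and 39.1 to 48.1 CPM in Myc animals, but the defining Pax7, Myf5, Calcr and Chrdl2 had 8, 4, 2 and 8 reads in all 12 libraries together, and 2 of the 8 genes, Cdh15 (9.89 to 16.5 CPM) and Myod1 (1.91 to 28.6 CPM), made up most of the sum. Smooth muscle and pericyte markers, 8 of 8 detected, summed to 1160 to 1556 and 1323 to 1486 CPM in controls. In Myc animals they summed to 1342 to 1485 and 1687 to 1863 CPM. Adipocyte markers, 6 of 6 detected, summed to 7356 to 8458 and 6674 to 7940 CPM, and to 7248 to 8497 and 6360 to 6622 CPM. Des alone, at 998 to 1727 CPM, made up most of the smooth muscle sum, and Car3, at 6019 to 8158 CPM, most of the adipocyte sum. These sums thus mostly follow 1 gene each and do not measure those cells. Neat1 had a pooled r of 0.74 with the smooth muscle sum (permutation p = 0.00616, adjusted p = 0.125), a rho of 0.67 (p = 0.0205, adjusted p = 0.187), and r = 0.59 with group means removed (exact permutation p = 0.0363, adjusted p = 0.435). Fibroblast markers, 10 of 10 detected, overlapped between legs, at 989 to 1565 and 893 to 1223 CPM in controls and 774 to 825 and 764 to 1463 CPM in Myc animals. The part of these cells in the changes of Neat1, Malat1 and H19 was not tested. Of 60 relations between the 5 tested genes and 12 marker lists none passed with group means removed. The closest pooled one was Meg3 with fast fibre markers, with r = 0.81 (permutation p = 0.00139, adjusted p = 0.0834) and rho = 0.87 (p = 0.00051, adjusted p = 0.0306), a pooled r of 0.74 without the 2 farthest libraries, and r = 0.74 with group means removed (exact permutation p = 0.0162, adjusted p = 0.435).

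The E-box CACGTG, the motif that Myc and its partner Max bind, was searched in the RefSeq promoters of GRCm38.p6 (300 bases around a start, both strands). It was present in 0 of the 5 promoters listed for 4 of the genes (Meg3, Rian, Mirg and Malat1), against 7.15% of all 32851 promoters. These letters are thus not in those windows, and H19, Neat1 and Gm42418 are named only.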

How the data were processed

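The members and gene lists were chosen with earlier results of these data known. The authors deposited 1 table of whole-number counts of reads per gene, not normalized. The submitters' processing notes name mm10, HTSeq 0.6.0, STAR 2.5.2a, SAMtools and FastQC 0.11.5, without their roles. The strand setting, the annotation and how the table was modified are not given in the sources used here. Total counts were 1371732 to 1643216 per library.

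Shares and CPM used all counts of a library, and log2 CPM a prior count of 2. Comparisons were fitted as 4 group means over 12 libraries by the quasi-likelihood F test of edgeR (version 4.0.16, R 4.3.3) after TMM scaling, on genes kept by filterByExpr (minimum count 10). Benjamini-Hochberg adjustment covered the 6676 genes tested. Each SE is the size of the log2 change divided by the square root of F. Exact sign-flip and permutation tests and correlations used Python 3.11.15, numpy 2.4.6 and scipy 1.17.1. Of these steps, only the edgeR contrast of contraction averaged over genotypes was run on simulated counts, with libraries drawn independently.

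Legs with 1 number and genotype come from 1 animal, per the titles. After removal of group means, the r between the legs of an animal was -0.1216 to 0.1115. Named genes are the members, the 3 genes most like each tested member, Myc, and, in a list, the 4 tested genes of smallest p and the 4 of highest mean, of which a selection is printed. Alternatives were RLE scaling, library totals, totals without mitochondrial genes and Gm42418, other filters (none, or 20 reads in 3 libraries), a prior count of 0.5, DESeq2 1.42.0, the animal as a block, each library left out, and fits without the 4 contracted libraries numbered 2 and 3. The edgeR and DESeq2 fits of group means and the correlations treat the 2 legs of an animal as separate libraries, so their p-values measure the spread between libraries. Only the sign-flip test and the animal block pair the legs. Sequences came from GENCODE (GRCm38) and RefSeq (GRCm38.p6).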

Additional observations from a re-analysis of the deposited data

How the results depend on the processing

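Of 565 alternative values of the 35 log2 changes tested (5 genes in 7 comparisons), 498 kept direction and call, 15 lost a call, 17 gained one and 35 changed sign; where not stated, the cause was not tested. With the animal as a replicate block (paired legs), 0 of the 5 genes passed in Myc animals and 3 averaged over genotypes. Of all 6676 genes, 228 and 440 passed there. Without a low-count filter 2 passed in controls and 4 in Myc animals, beside 305 and 433 of 17871 genes. That edgeR fit gave Malat1 and Gm42418 adjusted p = 5.79e-15 and 1.33e-25 in controls, at log2 changes of 1.28 and 1.52. Their groups overlap, and the adjusted p was 0.186 and 0.230 with the filter, so calls made without the filter are no support. DESeq2 left 1 averaged over genotypes (Neat1), beside 386 of 6676 genes. Leaving out 1 library gave 0 to 3 passing genes in controls (3 without contracted control 1), 0 to 3 in Myc animals (3 without contracted Myc 1) and 2 to 4 averaged. Among all genes 313 of 7033 passed in controls without contracted control 1, and 517 of 7018 in Myc animals without contracted Myc 1.

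Without the 4 contracted libraries 0 genes passed in Myc animals and 0 averaged, with 1 contracted library per genotype left in the fit. Log2 changes with contraction turned to -0.32 (Malat1) and -0.61 (Gm42418) in controls and -0.10 (Meg3) in Myc animals, and the leg differences over animals to -0.25 and -0.35 (Malat1, Gm42418). Changes with Myc turned to -0.42 (Neat1) and 0.42 (Malat1) in contracted legs and 0.034, -0.26 and 0.35 (H19, Neat1, Gm42418) averaged, the interaction to -0.072 (Meg3) and -0.32 (Neat1), and the r of H19 and Gm42418, group means removed, to 0.34. With library totals alone, Meg3 with Myc in contracted legs was 0.023.

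Leaving out 1 library, these values, none of which passed, changed sign. With Myc in uncontracted legs Gm42418 ran from -1.22 to 0.12. With Myc in contracted legs H19 ran from -0.34 to 0.028, Meg3 from -0.19 to 0.22, Malat1 from -0.78 to 0.33 and Gm42418 from -0.50 to 1.09. Averaged over legs H19 ran from -0.12 to 0.059, Neat1 from -0.014 to 0.15 and Gm42418 from -0.54 to 0.40. The interaction ran from -0.36 to 0.75 (Malat1) and -0.20 to 1.38 (Gm42418), and the r of H19 and Gm42418 from -0.42 to 0.12. Depth limits Rian and Mirg, at 0 to 6 reads a library.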
